A study of Mus musculus with 36 samples.

Results

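The integrated stress response and the unfolded protein response were followed through 44 listed mouse genes, 28 of which belong to the ATF4 and amino acid arm and 16 to the chaperone and degradation arm of the endoplasmic reticulum (ER). A gene was tested if the accession of one of its probes mapped to its symbol and if that probe passed the scanner's flag for signal well above background in 1 group or more, on 3 of that group's 4 arrays. This left 42 tested genes, 26 of the ATF4 and amino acid arm and 16 of the ER arm, among 32490 gene names tested in all. The pyrroline reductase gene Pycr1 had no probe with its accession, and the secreted stanniocalcin gene Stc2 did not reach the background limit in any group.

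The arrays came from Bhas 42 cells, a cloned mouse fibroblast line that carries a v-Ha-ras oncogene, so that every group, controls included, has this oncogene. Cells of all groups were exposed for 48 h, from day 4 after seeding to collection on day 6. The design text speaks of 4 independent experiments but the labels do not give the experiment of an array, so p-values measure only the spread between these samples, which may be technical. The groups were NM-203, a synthetic amorphous silica, at 1, 2 and 5 µg/cm²; DE (diatomaceous earth) at 5 µg/cm²; and their shared control of 2% water. Min-U-Sil 5, a crystalline silica, was given at 20 µg/cm² and had a 2% water control of its own. TPA, a phorbol ester that activates protein kinase C, was given at 0.05 µg/ml, with 0.1% DMSO as its control. Each of the 9 groups had 4 arrays, and precision is limited by this number. In bulk samples, fewer cells of a type and less RNA per cell cannot be told apart.

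In the integrated stress response, kinases that sense amino acid shortage, ER stress, haem lack or viral RNA phosphorylate the translation factor eIF2, which slows protein synthesis as a whole while the messenger RNA of the transcription factor ATF4 is translated more. ATF4 then switches on genes of amino acid uptake and synthesis, of transfer RNA charging and of cell death. The unfolded protein response of the ER shares the kinase PERK with this pathway, and its other branches, through ATF6 and the spliced form of XBP1, raise chaperones and degradation factors of the ER.

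The promoters of both arms are shown because known response elements of the 2 arms occur in different promoters. With NM-203 at 5 µg/cm² 18 of 26 genes of the ATF4 and amino acid arm rose and 6 of 16 of the ER arm, while 14% of all gene names were called higher. RefSeq windows of 300 bases (250 before and 50 after the start, build GRCm38.p6) were found for 36 of the 44 listed genes. Capitals mark the C/EBP-ATF response element, searched as TGATGNAA on both strands (so that its reverse complement is marked too), in the 4 promoters of the ATF4 arm that hold it and whose genes changed most with NM-203 at 5 µg/cm². These are Fgf21 (chr7:45615441-45615740, minus strand), Slc7a11 (chr3:50443564-50443863, minus strand), Trib3 (chr2:152344011-152344310, minus strand) and Asns (chr6:7693160-7693459, minus strand).
Fgf21: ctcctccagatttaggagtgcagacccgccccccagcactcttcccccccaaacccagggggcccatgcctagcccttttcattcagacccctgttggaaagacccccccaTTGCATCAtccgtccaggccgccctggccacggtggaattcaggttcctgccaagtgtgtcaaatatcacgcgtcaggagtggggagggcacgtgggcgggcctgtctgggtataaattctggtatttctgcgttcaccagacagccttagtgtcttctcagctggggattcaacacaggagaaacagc
Slc7a11: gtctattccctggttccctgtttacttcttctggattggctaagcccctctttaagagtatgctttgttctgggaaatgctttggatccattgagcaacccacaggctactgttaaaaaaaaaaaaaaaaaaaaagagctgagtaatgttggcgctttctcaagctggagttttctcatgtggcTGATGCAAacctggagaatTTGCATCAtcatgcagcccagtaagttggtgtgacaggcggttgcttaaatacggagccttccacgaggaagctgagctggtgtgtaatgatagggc
Trib3: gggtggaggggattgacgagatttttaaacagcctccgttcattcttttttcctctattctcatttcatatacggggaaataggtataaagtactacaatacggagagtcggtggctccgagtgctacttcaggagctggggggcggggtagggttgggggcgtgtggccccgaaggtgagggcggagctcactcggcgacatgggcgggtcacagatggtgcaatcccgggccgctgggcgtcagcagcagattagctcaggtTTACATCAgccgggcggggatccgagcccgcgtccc
Asns: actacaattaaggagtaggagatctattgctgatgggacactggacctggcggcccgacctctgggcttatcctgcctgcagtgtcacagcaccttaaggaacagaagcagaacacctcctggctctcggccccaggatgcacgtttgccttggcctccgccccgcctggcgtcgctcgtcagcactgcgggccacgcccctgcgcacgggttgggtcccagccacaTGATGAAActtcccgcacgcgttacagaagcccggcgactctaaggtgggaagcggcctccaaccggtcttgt
The element lies upstream of the start in Fgf21, Slc7a11 and Asns and within the first transcribed bases in Trib3, and Slc7a11 holds it 2 times. It was found in 9 of 23 promoters of the ATF4 and amino acid arm (39.13%), in 1 of 13 promoters of the ER arm (Herpud1) and in 4.511% of all 27025 genes with a promoter. The 9 genes were Asns, Chac1, Fgf21, Nupr1, Pycr1, Slc1a4, Slc7a11, Trib3 and Vldlr, of which Slc1a4 (-0.09) and Vldlr (-0.03) were not called with NM-203 at 5 µg/cm².

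In the ER arm, capitals mark the ER stress element, searched as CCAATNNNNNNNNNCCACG on both strands, in the 4 promoters chosen by the same rule, with changes in either direction. The promoters are those of Hspa5 (chr2:34771840-34772139, plus strand), Creld2 (chr15:88819396-88819695, plus strand), Canx (chr11:50325624-50325923, minus strand) and Hsp90b1 (chr10:86705395-86705694, minus strand), the last with 2 copies.
Hspa5: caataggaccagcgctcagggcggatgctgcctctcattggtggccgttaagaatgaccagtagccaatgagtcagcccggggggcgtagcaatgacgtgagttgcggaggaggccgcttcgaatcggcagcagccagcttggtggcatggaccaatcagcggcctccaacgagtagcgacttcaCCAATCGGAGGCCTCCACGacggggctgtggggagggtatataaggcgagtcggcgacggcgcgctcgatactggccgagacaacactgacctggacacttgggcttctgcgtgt
Creld2: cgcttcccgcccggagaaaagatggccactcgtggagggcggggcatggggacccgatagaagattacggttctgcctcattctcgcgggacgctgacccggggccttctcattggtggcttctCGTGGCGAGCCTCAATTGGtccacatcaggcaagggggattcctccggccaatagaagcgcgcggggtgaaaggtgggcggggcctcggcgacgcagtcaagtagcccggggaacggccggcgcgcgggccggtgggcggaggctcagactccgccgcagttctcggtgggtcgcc
Canx: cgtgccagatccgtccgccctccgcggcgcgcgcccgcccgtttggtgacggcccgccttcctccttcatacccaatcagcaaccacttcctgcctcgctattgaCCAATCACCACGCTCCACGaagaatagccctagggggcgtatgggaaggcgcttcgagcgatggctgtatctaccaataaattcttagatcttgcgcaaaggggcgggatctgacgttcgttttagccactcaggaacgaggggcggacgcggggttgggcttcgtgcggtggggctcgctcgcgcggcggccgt
Hsp90b1: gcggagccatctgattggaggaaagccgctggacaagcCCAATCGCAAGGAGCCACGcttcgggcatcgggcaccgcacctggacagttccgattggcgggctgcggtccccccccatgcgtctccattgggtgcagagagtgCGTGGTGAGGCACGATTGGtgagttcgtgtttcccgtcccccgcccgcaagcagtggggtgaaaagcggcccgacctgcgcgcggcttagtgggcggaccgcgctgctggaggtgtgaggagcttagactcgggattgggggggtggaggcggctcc
This element was found in 7 of 13 promoters of the ER arm (53.846%: Calr, Canx, Creld2, Dnajc3, Hsp90b1, Hspa5 and Pdia6), in 0 of 23 of the ATF4 and amino acid arm and in 0.137% of all genes. The related element of ATTGG, any base and CCACG was found in Herpud1 alone among the members and in 0.044% of all genes. The core ACGTGG bound by XBP1 was found in 3 of 23 and 4 of 13 promoters, against 9.395% of all genes, and in Herpud1 it overlaps that related element. A match to these letters describes the sequence and does not show that a factor was bound, and a promoter without one shows only that the letters are not in this window.

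Across genes, arrays of the same group had correlations of 0.953 to 0.993. The 75th percentile of the intensity, to which each array was scaled, lay between 531 and 1542, and 57.0% to 77.2% of spots were well above background. The arrays lay on 5 slides scanned on 2 days. The first day held all water, DE, TPA and DMSO arrays and 3 of the 4 arrays of NM-203 at 1 and at 5 µg/cm²; the second held the rest, with Min-U-Sil 5, its water and NM-203 at 2 µg/cm² complete. Between the 2 water controls, Min-U-Sil 5 water minus water, 6105 of 32490 gene names were higher and 1841 lower. Of the 26 ATF4 and amino acid members 1 was higher and 2 lower. Of the 16 ER members 1 was higher, Herpud1 (0.31), and 4 lower, Pdia4 (-1.02), Sdf2l1 (-0.71), Manf (-0.60) and Calr (-0.47). Every value of NM-203 at 2 µg/cm² set against water below therefore crosses the 2 days, unless the Min-U-Sil 5 water is named. DMSO minus water gave 0 calls in either direction. All 7 fibroblast markers were well above background on all 36 arrays, as were 3 of 5 macrophage markers (Csf1r, Cd68 and Itgam), 1 of 4 epithelial markers (Krt8) and 1 of 3 endothelial markers (Pecam1). Of the other markers, Cdh5 was so on 22 arrays, Krt18 on 10, Kdr on 9, Adgre1 on 7, Cdh1 on 1, and Ptprc and Epcam on 0. The summed level of the fibroblast markers was 8.91 to 9.34 with NM-203 at 5 µg/cm² and 9.50 to 9.71 in water, and 9.21 to 9.34 with Min-U-Sil 5 and 9.52 to 10.06 in its water. Of these 7 markers, 4 were lower in each of these comparisons (Col1a1, Col3a1, S100a4 and Pdgfrb), 3 at 2 µg/cm² of NM-203 and 1 with TPA. The summed level of the 2 tested epithelial markers was -4.24 to -3.65 with NM-203 at 5 µg/cm², against -2.74 to -2.45 in water. It was -3.46 to -2.82 with Min-U-Sil 5, against -2.47 to -2.08 in its water, and -3.76 to -3.14 with TPA, against -2.59 to -2.41 in DMSO. The 4 tested macrophage markers summed to 4.18 to 4.74 in water, 3.13 to 4.01 with NM-203 at 2 µg/cm² and 3.86 to 4.32 at 5 µg/cm². In the Min-U-Sil 5 water, scanned on the same day as the arrays at 2 µg/cm², they summed to 3.61 to 4.27, which overlaps the range at that dose. The 3 endothelial markers summed to -3.03 to -2.42 with NM-203 at 5 µg/cm² and -2.43 to -2.05 in water, which touch. The part of these shifts in the results was not tested.

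NM-203 at 5 µg/cm² was set against water to ask what the highest dose of this silica changes. Of the 26 ATF4 and amino acid genes, 18 rose and 0 fell, with a median log2 change of 1.03, while 14% of all gene names were called higher and 19.1% lower and their median change was 0.01. Of the 16 ER genes, 6 rose and 0 fell, with a median log2 change of 0.04. Changes are limma estimates with their standard error (SE), a gene is called if its Benjamini-Hochberg adjusted p over all gene names is under 0.05, and levels are log2 intensities relative to the 75th percentile of the array.

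The regulators of the arm rose in 6 of 7 cases. Atf4, the transcription factor at the centre of the pathway, had levels of 7.19, 6.97, 6.63 and 6.59 with NM-203 at 5 µg/cm² and of 5.71, 5.72, 5.59 and 5.82 in water. All exposed arrays lay above all water arrays, a 2.19-fold difference (log2 change 1.13 ± 0.16 SE, adjusted p = 6.53e-07). Trib3, a pseudokinase induced by ATF4 that dampens its activity, had levels of 5.42, 5.29, 5.16 and 5.08 against 3.55, 3.38, 3.23 and 3.53 in water, 3.52-fold higher (1.82 ± 0.16, adjusted p = 2.36e-10). Ddit3, which encodes the death-promoting factor CHOP, had levels of 2.78, 3.07, 2.79 and 2.96 against 2.28, 2.31, 2.35 and 2.35 in water. Its groups did not overlap either, but the difference was smaller, 1.49-fold (0.58 ± 0.13, adjusted p = 0.000911). Nupr1, a small stress-induced chromatin protein, rose by a log2 change of 1.10 ± 0.09 (adjusted p = 1.28e-10). Ppp1r15a, the phosphatase subunit that reverses eIF2 phosphorylation, rose by 1.17 ± 0.16, and Cebpg, a dimer partner of ATF4, by 0.44 ± 0.09. Atf5, a relative of ATF4 that is also regulated through translation, was not called (-0.39 ± 0.42, adjusted p = 0.564).

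Amino acid genes held some of the widest differences. Slc7a11, the cystine importer that feeds glutathione synthesis, had levels of -1.38, -1.43, -1.08 and -1.37 with NM-203 at 5 µg/cm² and of -3.49, -4.27, -4.48 and -4.16 in water. The groups lay far apart, with a 6.89-fold difference (log2 change 2.79 ± 0.33, adjusted p = 5e-08). Cth, which makes cysteine from cystathionine, had levels of 1.68, 1.55, 1.90 and 1.27 against -0.00, -0.15, -0.19 and -0.39 in water, 3.44-fold higher (1.78 ± 0.16, adjusted p = 1.87e-10). Asns, the asparagine synthetase, had levels of 5.80, 5.73, 5.65 and 5.38 against 4.27, 4.30, 4.18 and 4.24 in water, 2.62-fold higher (1.39 ± 0.11, adjusted p = 1.94e-11). In none of these 3 genes did the groups overlap; over all gene names, 15.9% had all exposed arrays above all water arrays and 20.1% had them below. Aldh18a1, which starts proline synthesis, rose by 1.06 ± 0.11, so all 3 tested enzymes rose. Of the 9 transporters 5 rose: Slc7a11, the glycine transporter Slc6a9 (1.74 ± 0.11), the cationic amino acid transporter Slc7a1 (1.16 ± 0.16), and Slc3a2 (0.73 ± 0.15) and Slc7a5 (0.65 ± 0.25), the heavy and light chains of a carrier of large neutral amino acids. The other 4, Slc7a3, Slc1a4, Slc1a5 and Slc38a2, had log2 changes between -0.62 and 0.22 and were not called. A second probe of Slc3a2 did not repeat its change (-0.01 ± 0.14).

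Among the remaining genes of the arm, both secreted factors rose. Fgf21, a metabolic hormone that stressed cells secrete, had levels of -2.65, -2.77, -2.57 and -2.98 with NM-203 at 5 µg/cm² and of -5.19, -6.51, -5.55 and -6.91 in water. Only 2 of the 4 water arrays were well above background for this probe, and the groups did not overlap (log2 change 3.30 ± 0.40, 9.86-fold, adjusted p = 8.11e-08). Fgf21 entered the test only through groups where its level was high. These were TPA, Min-U-Sil 5 and NM-203 above 1 µg/cm², each with 4 of 4 arrays well above background. All other groups had 0 to 2 such arrays, so its calls against controls rest on signal near background there. With normexp background correction and quantile normalization the log2 change of Fgf21 was 1.24 and that of Slc7a11 1.76, both still called. Gdf15, another secreted stress factor, rose by 1.27 ± 0.21 (adjusted p = 1.01e-05). Chac1, an enzyme that breaks down glutathione, had levels of 3.95, 4.30, 4.41 and 4.36 against 2.97, 2.95, 2.89 and 2.75 in water. The lowest exposed array lay well above the highest water array, and the difference was 2.58-fold (1.37 ± 0.18, adjusted p = 2.01e-07). Eif4ebp1, a repressor of translation initiation, rose by 1.00 ± 0.11. The mTORC1 inhibitors Ddit4 (-0.41 ± 0.25) and Sesn2 (0.25 ± 0.14) and the lipoprotein receptor Vldlr (-0.03 ± 0.13) were not called.

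**Figure D1:**
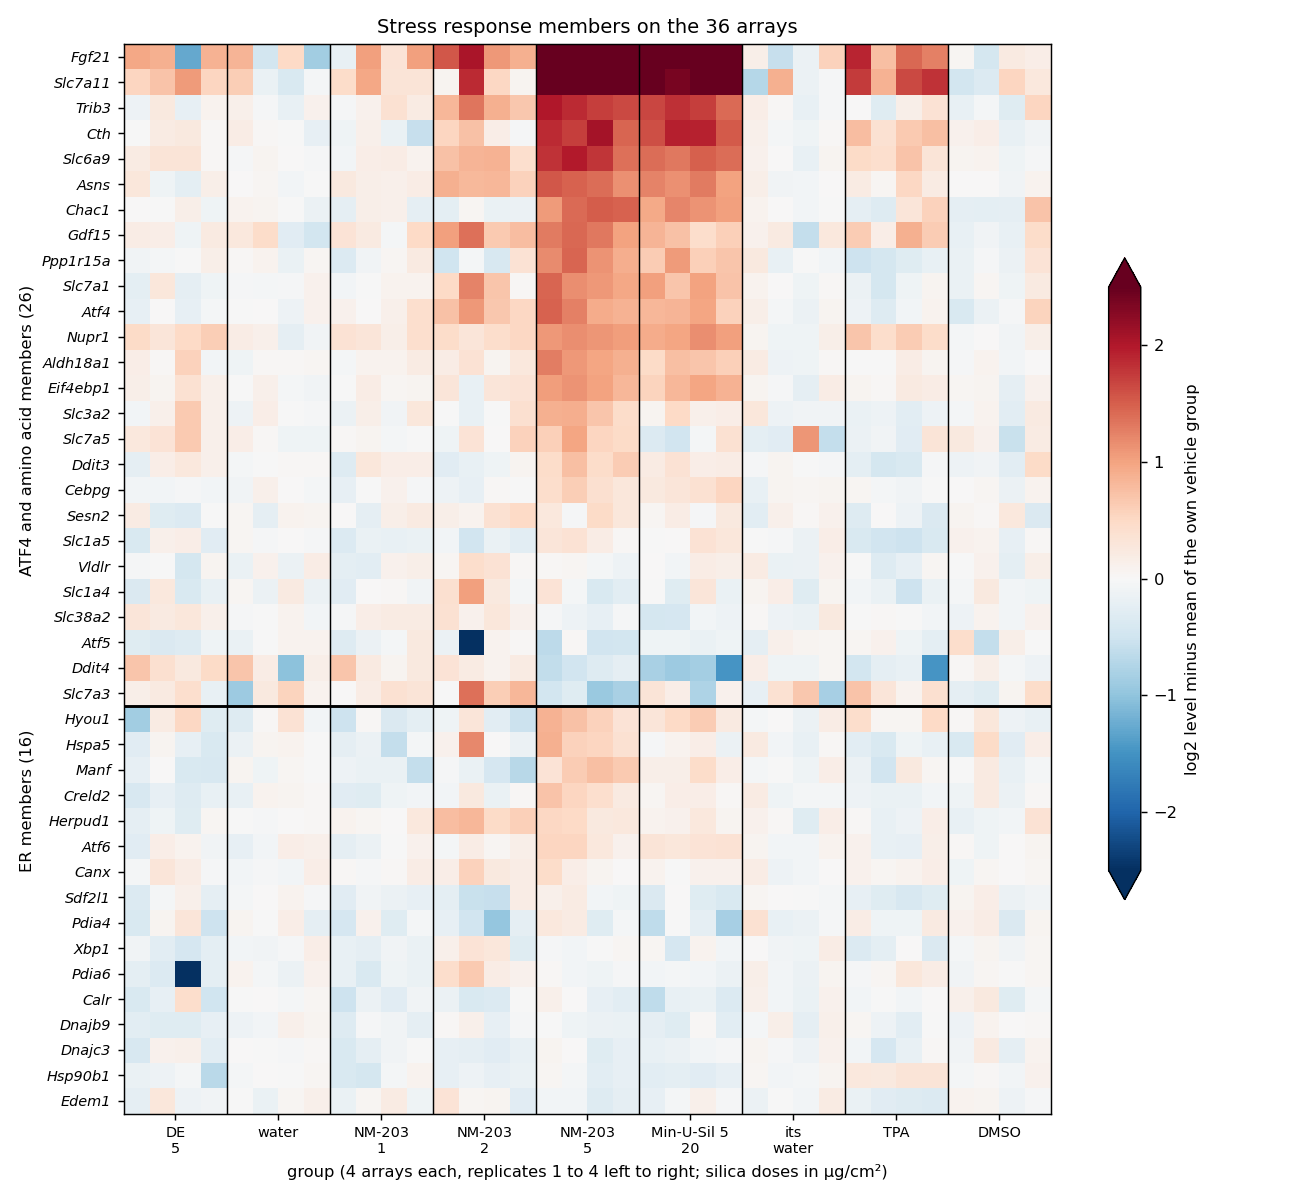
Log2 level of each of the 42 tested members (rows, ordered within each arm by their change with NM-203 at 5 µg/cm²) on each of the 36 arrays (columns, replicates 1 to 4 in each group), minus the mean of the vehicle group of that array. The colour scale ends at 2.5 in both directions; the 4 arrays each of NM-203 at 5 µg/cm² and of Min-U-Sil 5 are red over most of the upper block (26 ATF4 and amino acid members), and few of the 16 ER members share this colour.

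The ER arm moved less. Hspa5, the main chaperone of the ER lumen (BiP), had levels of 5.89, 5.58, 5.55 and 5.39 with NM-203 at 5 µg/cm² and of 4.85, 5.08, 5.09 and 4.99 in water. All exposed arrays lay above all water arrays, a 1.52-fold difference (log2 change 0.60 ± 0.20, adjusted p = 0.0209), and 2 further probes gave 0.44 and 0.49. Hyou1, a chaperone of the same family, had levels of -1.59, -1.74, -1.89 and -2.13 against -2.78, -2.44, -2.12 and -2.54 in water, and the lowest exposed array lay just below the highest water array (0.63 ± 0.21, adjusted p = 0.021). Manf, a secreted ER stress protein, had levels of 2.43, 2.71, 2.83 and 2.73 against 2.14, 1.97, 2.13 and 2.07 in water, without overlap (0.59 ± 0.15, adjusted p = 0.00154). Creld2, an ER folding factor, rose by 0.47 ± 0.10. These 4 were the only ones called among 12 chaperone and folding genes. The disulfide isomerases Pdia4 and Pdia6, the lectin chaperones Calr and Canx, Hsp90b1, Sdf2l1 and the cochaperones Dnajb9 and Dnajc3 had log2 changes between -0.12 and 0.17 and were not called.

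Of the 4 regulators and degradation genes, Herpud1 and Atf6 rose. Herpud1, which helps clear proteins from the ER, had levels of 3.69, 3.67, 3.42 and 3.44 with NM-203 at 5 µg/cm² and of 3.16, 3.15, 3.19 and 3.21 in water, without overlap (1.30-fold, log2 change 0.38 ± 0.12, adjusted p = 0.0102). Atf6, the sensor whose cleaved part drives chaperone genes, rose by 0.36 ± 0.11 (adjusted p = 0.00986). Xbp1, the factor activated by splicing, had levels of 3.52, 3.48, 3.54 and 3.60 against 3.48, 3.46, 3.53 and 3.72 in water. These lay over each other (-0.01 ± 0.12, 95% confidence interval -0.26 to 0.23), and the probe does not tell the spliced from the unspliced form. Edem1, a mannosidase-like degradation factor, gave -0.16 ± 0.12 on its brightest probe and 0.70 ± 0.12 on another, which was called, so its direction depends on the probe.

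Without replicate 1 of water, 3 ER genes rose, and in the ATF4 and amino acid arm 18 rose and 1 fell. Within slides 1 and 3, the slides that hold both groups, 13 and 16 genes of the ATF4 and amino acid arm were called higher (median log2 changes 0.84 and 1.12) and 0 of the ER arm (medians -0.09 and 0.11), with 2 exposed arrays and 1 water array on slide 1 and 1 of each on slide 3, where the lone array is assumed to vary like the other groups. Over all gene names, 2502 were called higher and 3128 lower within slide 1, and 2376 and 2651 within slide 3. Scaling on the median of the genes tested moved the median change of all gene names to 0.11, and turned 4549 higher and 6191 lower calls into 4416 and 4065. The counts of the arms were then 18 and 5, all higher.

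**Figure D2:**
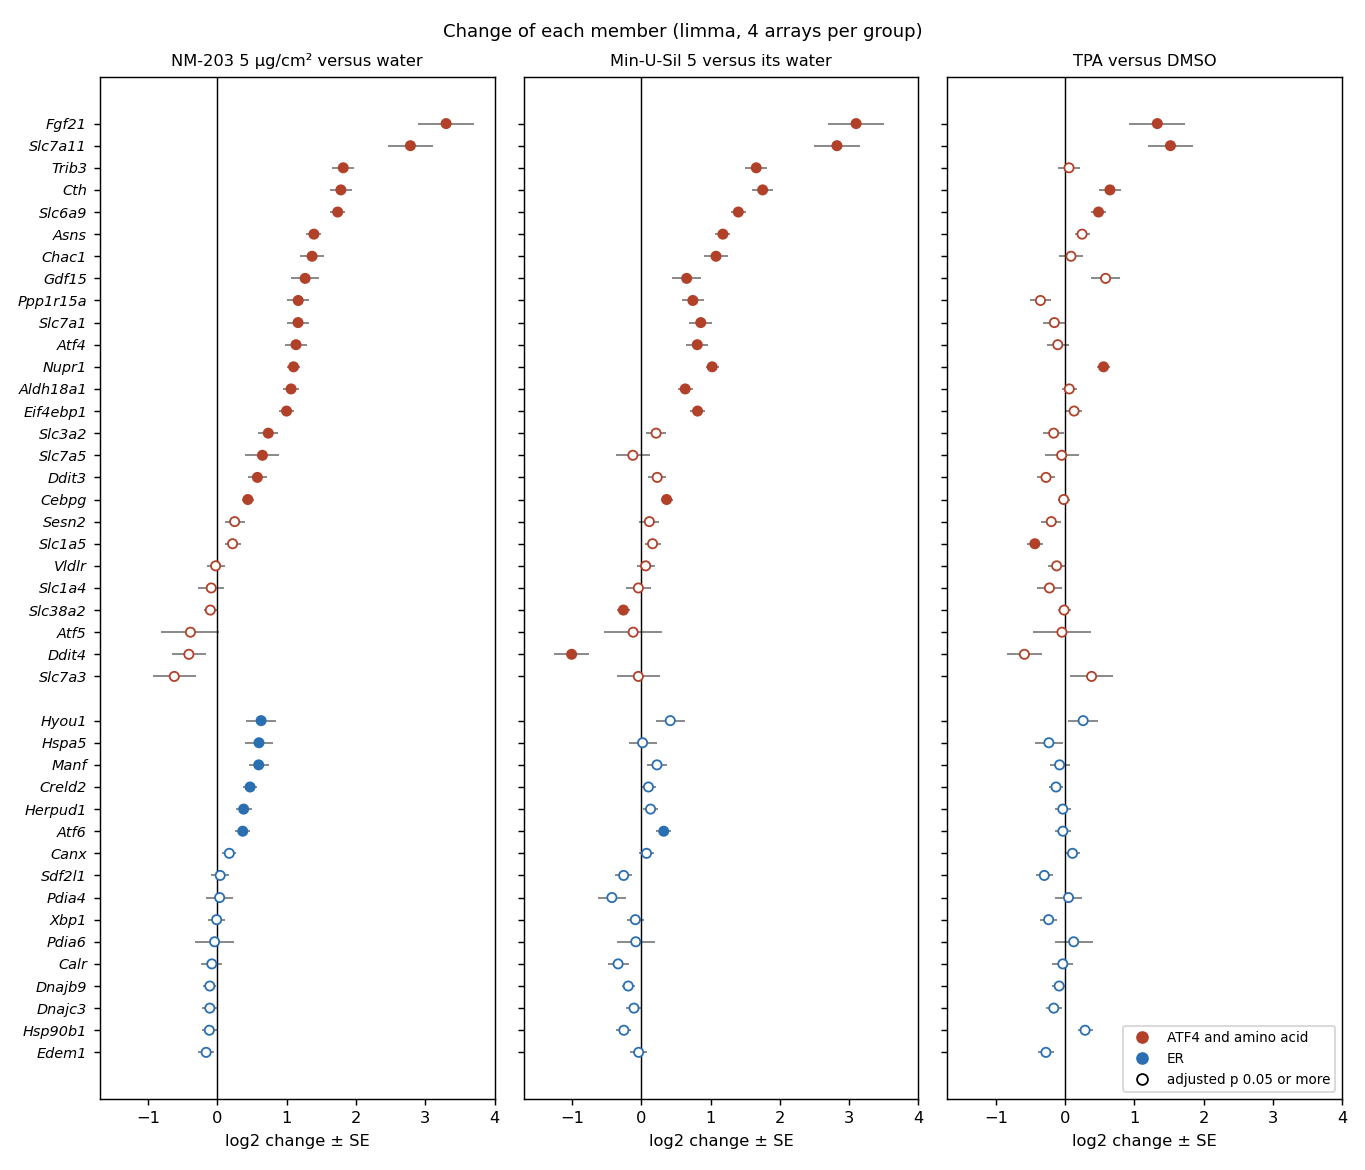
Log2 change ± SE (horizontal axis) of each tested member (vertical axis, ATF4 and amino acid arm above, ER arm below) for NM-203 at 5 µg/cm² versus water, Min-U-Sil 5 versus its water and TPA versus DMSO, each with 4 arrays per group. Filled points have an adjusted p under 0.05; the widest changes as measured in the first panel and in the second are those of Fgf21 (3.30 and 3.10, the second against a control under background) and Slc7a11 (2.79 and 2.82), and in the third those of Slc7a11 (1.52) and Fgf21 (1.33).

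The lower doses were set against the same water arrays, which they share with NM-203 at 5 µg/cm² and with DE, so the values of the 4 comparisons are given side by side. At 1 µg/cm², 0 members were called, against 0.0431% of all gene names called higher and 0.0431% lower; 1864 gene names had an unadjusted p under 0.05. The median log2 change was 0.07 in the ATF4 and amino acid arm and -0.18 in the ER arm. Atf4 changed by 0.17 ± 0.16, Ddit3 by 0.07 ± 0.13, Asns by 0.18 ± 0.11, Hspa5 by -0.26 ± 0.20, Herpud1 by 0.10 ± 0.12 and Xbp1 by -0.16 ± 0.12, all with adjusted p = 1.

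At 2 µg/cm², 8 of 26 ATF4 and amino acid genes rose and 0 fell (median log2 change 0.25), and 2 of 16 ER genes rose and 0 fell (median -0.01), while 16.2% of all gene names were called higher and 8.86% lower. The 8 were Fgf21 (1.39 ± 0.40, and 0.29 and not called with normexp and quantile normalization), Gdf15 (0.96 ± 0.21), Trib3 (0.93 ± 0.16), Asns (0.77 ± 0.11), Atf4 (0.76 ± 0.16), Slc6a9 (0.72 ± 0.11), Slc7a1 (0.62 ± 0.16) and Nupr1 (0.43 ± 0.09). Trib3 had levels of 4.25, 4.76, 4.31 and 4.10 and Asns of 5.13, 5.05, 5.08 and 4.81, all above the water arrays given earlier, as were 14.7% of all gene names, with 7.61% all below. Atf4 had levels of 6.45, 6.80, 6.39 and 6.22, also above all water arrays, but its other probe gave a log2 change of 0.06 ± 0.15. Ddit3 (-0.13 ± 0.13), Chac1 (-0.13 ± 0.18), Ppp1r15a (-0.15 ± 0.16) and Cebpg (-0.08 ± 0.09), which all rose at 5 µg/cm², were not called. Slc7a11 was not called on its brightest probe (0.63 ± 0.33) and was on another (1.73 ± 0.32), and Slc3a2 was not called on its brightest probe and fell on another (-0.42 ± 0.14).

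In the ER arm at 2 µg/cm², Herpud1 had levels of 3.94, 4.00, 3.67 and 3.77, above all water arrays, with a log2 change of 0.67 ± 0.12 (adjusted p = 8.23e-05). Its mean was the highest of the 9 groups, a rank that crosses the scan days. The Min-U-Sil 5 water, scanned on the same day, had a mean of 3.49, against 3.18 in the other water. Another Herpud1 probe gave 0.24 ± 0.11 and was not called. Canx, a lectin chaperone, rose by 0.30 ± 0.10 (adjusted p = 0.0309) on its brightest probe and was not called on another (0.03 ± 0.12). Hspa5 had levels of 5.10, 6.21, 5.01 and 4.86, of which replicate 2 alone stood out, and was not called (0.29 ± 0.20), while its 2 further probes fell (-0.67 ± 0.15 and -0.58 ± 0.15). Hyou1 and Edem1 were not called on their brightest probes, and other probes gave -0.90 ± 0.18 for Hyou1 and 0.39 ± 0.12 for Edem1, both called. Xbp1 changed by 0.11 ± 0.12 (adjusted p = 0.531).

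The arrays at 2 µg/cm² and those of this water control share neither a scan day nor a slide. With scan day as a block, 2 members were called, Asns (0.66, adjusted p = 0.0171) and Slc6a9 (0.67, adjusted p = 0.0206), with 1058 of 32490 gene names called higher and 658 lower. The day shift in this fit is set only by NM-203 at 1 and at 5 µg/cm², the groups split over both days. Each had 1 array on the second day, which limits the precision of this fit. Against the Min-U-Sil 5 water, scanned on the same day as the arrays at 2 µg/cm², 11 genes of the ATF4 and amino acid arm and 2 of the ER arm were called higher, with 2500 of 32490 gene names called higher and 2560 lower. The log2 changes in this comparison were 2.16 for Fgf21, 1.15 for Slc7a11, 0.95 for Trib3, 0.76 for Cth, 0.66 for Asns, 0.59 for Chac1 and 0.36 for Herpud1, all called, and 0.36 for Ppp1r15a, 0.18 for Ddit3 and 0.02 for Cebpg, which were not. For Fgf21, 0 of the 4 arrays of this water were well above background. Chac1 thus passed the test at 2 µg/cm² against this water and not against the other. Fitted with the compared groups alone, 5 members were called (Asns, Atf4, Slc6a9, Trib3 and Herpud1), with 1885 gene names higher and 1027 lower.

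**Figure D3:**
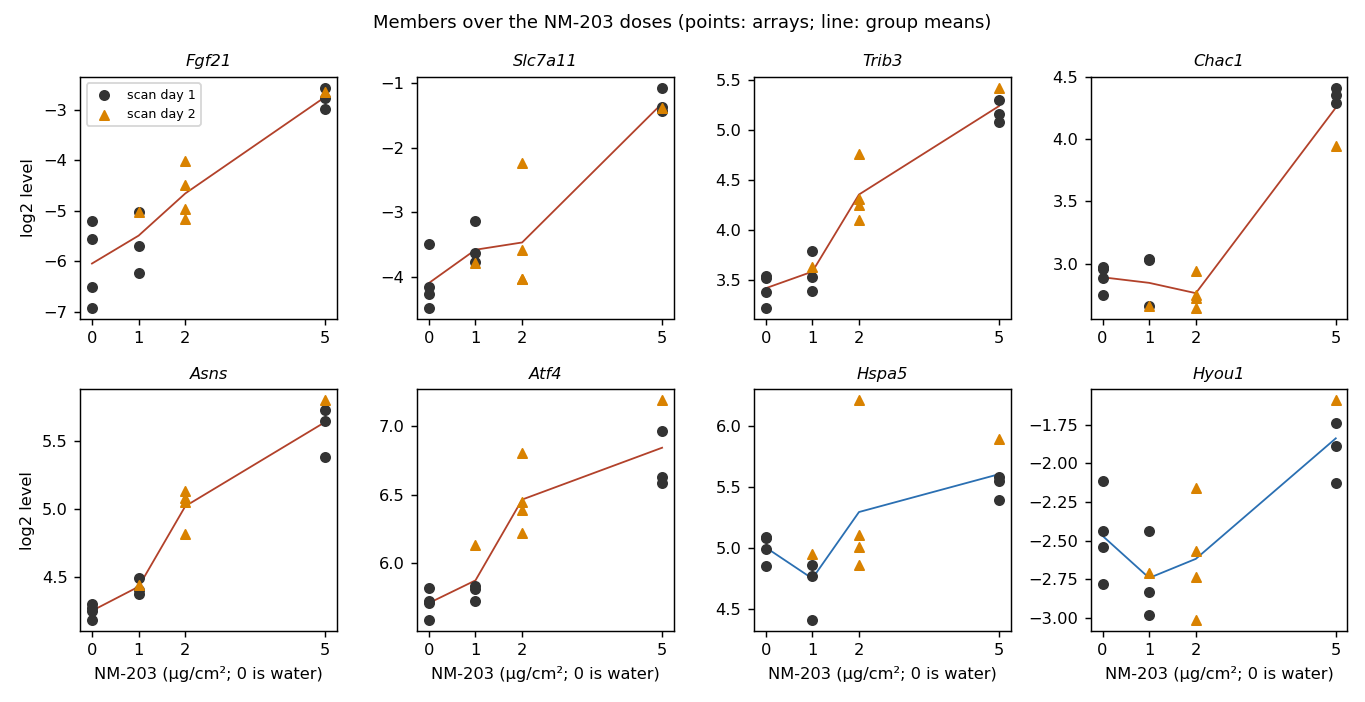
Log2 level (vertical axes, one range per gene) of 6 ATF4 and amino acid members and 2 ER members on each array over the NM-203 dose in µg/cm² (0 is water); lines join group means, round points were scanned on the first day and triangles on the second. The Fgf21 means are -6.04 in water, -5.49 at 1, -4.65 at 2 and -2.74 at 5 µg/cm², and those of Chac1 are 2.89, 2.84, 2.76 and 4.26; the arrays at 2 µg/cm² and the water arrays were scanned on different days.

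Over the doses, which cross the scan days, Fgf21 had mean levels of -6.04 ± 0.80 in water, -5.49 ± 0.58 at 1 µg/cm², -4.65 ± 0.51 at 2 µg/cm² and -2.74 ± 0.18 at 5 µg/cm² (SD, n = 4). Chac1 was 2.89, 2.84, 2.76 and 4.26 in the same order, and its values at 1 and 2 µg/cm² overlapped those of water; the water scanned on the same day as the arrays at 2 µg/cm² had a mean of 2.17. NM-203 at 5 µg/cm² was also set against NM-203 at 1 µg/cm²: 18 of 26 genes rose and 2 fell in the ATF4 and amino acid arm, 5 of 16 rose in the ER arm, and 12.6% of all gene names were called higher and 15.5% lower. In the first arm Fgf21 (2.75 ± 0.40), Slc7a11 (2.27 ± 0.33), Cth (1.96 ± 0.16) and Trib3 (1.65 ± 0.16) differed most. Only 2 of the 4 arrays at 1 µg/cm² were well above background for Fgf21. With normexp and quantile normalization the change was 1.16 for Fgf21 and 1.46 for Slc7a11, both still called. The lowest change of Cth under any alternative was 1.72, so the order of these genes depends on the processing. The 2 that fell were Ddit4 (-0.72 ± 0.25) and the cationic transporter Slc7a3 (-0.85 ± 0.31). In the ER arm Hyou1 (0.90 ± 0.21), Manf (0.86 ± 0.15), Hspa5 (0.85 ± 0.20) and Creld2 (0.66 ± 0.10) differed most. Probes other than the brightest gave another call for Slc3a2 (0.05 ± 0.14, not called) and for Dnajb9 (0.52 ± 0.18), Edem1 (0.57 ± 0.12) and Herpud1 (0.34 ± 0.11), which were called.

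DE is a silica of another origin given at the same mass dose as the highest NM-203 dose. Against water, 1 of 26 ATF4 and amino acid genes rose and 0 of 16 ER genes, while 0.557% of all gene names were called higher and 0.449% lower. The gene was Nupr1, with levels of 3.04, 2.87, 3.07 and 3.18 with DE and of 2.74, 2.69, 2.34 and 2.48 in water. The groups did not overlap, as for 2.59% of all gene names above and 4.81% below (log2 change 0.47 ± 0.09, adjusted p = 0.00871). This call was lost with scaling on the median of the genes tested (adjusted p = 0.573), in a fit of the compared groups alone (adjusted p = 0.339), within each of the slides 1, 2 and 3, and without water replicate 3 or 4. Atf4 (-0.11 ± 0.16), Ddit3 (0.08 ± 0.13), Asns (0.02 ± 0.11), Hspa5 (-0.20 ± 0.20), Herpud1 (-0.14 ± 0.12) and Xbp1 (-0.25 ± 0.12) were not called.

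Set against DE directly, NM-203 at 5 µg/cm² was higher for 18 and lower for 2 of 26 ATF4 and amino acid genes and higher for 7 of 16 ER genes, while 14% of all gene names were called higher and 15.2% lower. Fgf21 (2.94 ± 0.40), Slc7a11 (2.07 ± 0.33), Trib3 (1.81 ± 0.16) and Cth (1.66 ± 0.16) differed most in the first arm, and Ddit4 (-0.86 ± 0.25) and the neutral amino acid transporter Slc38a2 (-0.34 ± 0.10) were lower. In the ER arm Manf (0.84 ± 0.15), Pdia6 (0.80 ± 0.28), Hspa5 (0.80 ± 0.20) and Creld2 (0.75 ± 0.10) differed most. The call of Pdia6 turns on 1 array: its levels were 5.30, 5.20, 5.16 and 5.23 with NM-203 at 5 µg/cm² and 5.03, 4.93, 2.72 and 5.01 with DE, where replicate 3 lay far below the others. Without that replicate its log2 change was 0.23. Other probes gave another call for Slc3a2 (-0.11 ± 0.14, not called) and Edem1 (0.43 ± 0.12, called).

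Min-U-Sil 5 was set against its own water, with both groups scanned on the second day. Of the 26 ATF4 and amino acid genes 15 rose and 2 fell, with a median log2 change of 0.64, while 11.6% of all gene names were called higher and 13.9% lower. Of the 16 ER genes 1 rose and 0 fell, with a median log2 change of -0.06. Slc7a11 had levels of -1.41, -2.24, -1.86 and -1.68 with Min-U-Sil 5 and of -5.34, -3.73, -4.76 and -4.65 in its water, 7.08-fold higher (2.82 ± 0.33, adjusted p = 9.89e-08). Fgf21 had levels of -3.86, -3.56, -3.47 and -3.99 against -6.68, -7.39, -6.96 and -6.24 in its water, whose 4 arrays all failed the background flag. Its difference is therefore given as at least 3.90-fold, set against the lowest signal well above background on each array (log2 change as measured 3.10 ± 0.40, adjusted p = 5.37e-07); with normexp and quantile normalization its log2 change was 0.62 and that of Slc7a11 1.49, both still called. Cth had levels of 1.02, 1.35, 1.33 and 0.93 against -0.46, -0.65, -0.70 and -0.56 in its water (1.75 ± 0.16, adjusted p = 9.19e-10). None of these 3 genes had overlapping groups; over all gene names, 11.8% had all exposed arrays above and 15.6% below.

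Among the regulators with Min-U-Sil 5, Trib3 had levels of 5.07, 5.23, 5.13 and 4.82 against 3.58, 3.44, 3.23 and 3.38 in its water (1.66 ± 0.16, adjusted p = 3.94e-09). Atf4 had levels of 6.95, 6.97, 7.11 and 6.70 against 6.27, 6.07, 5.98 and 6.18 in its water (0.81 ± 0.16, adjusted p = 0.000167). Both were higher on every exposed array than on every water array. Nupr1 rose by 1.02 ± 0.09, Ppp1r15a by 0.74 ± 0.16 and Cebpg by 0.36 ± 0.09. Ddit3 had levels of 2.22, 2.37, 2.17 and 2.21 against 1.99, 2.08, 2.00 and 1.98 in its water, which did not overlap, but it was not called (0.23 ± 0.13, adjusted p = 0.25).

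The other genes that rose with Min-U-Sil 5 were Slc6a9 (1.40 ± 0.11), Asns (1.18 ± 0.11), Chac1 (1.08 ± 0.18), Slc7a1 (0.86 ± 0.16), Eif4ebp1 (0.81 ± 0.11), Gdf15 (0.65 ± 0.21) and Aldh18a1 (0.63 ± 0.11). Chac1 had levels of 3.11, 3.38, 3.30 and 3.19 against 2.25, 2.17, 2.10 and 2.15 in its water. These lay apart, and the Chac1 level of this water was itself lower than that of the other water (log2 difference -0.72 ± 0.18, adjusted p = 0.00482). Ddit4, an mTORC1 inhibitor that ATF4 and other stress factors induce, had levels of 3.75, 3.65, 3.71 and 3.08 against 4.72, 4.45, 4.46 and 4.60 in its water and fell by 1.01 on the log2 scale (SE 0.25, adjusted p = 0.00257). Slc38a2 fell by 0.26 (SE 0.10, adjusted p = 0.0445).

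In the ER arm with Min-U-Sil 5 the 1 gene called was Atf6 (0.32 ± 0.11, adjusted p = 0.0293), and this call was kept under 15 of 23 alternatives. Hspa5 had levels of 4.93, 5.04, 5.12 and 4.81 against 5.18, 4.89, 4.77 and 5.00 in its water. These overlapped, with a log2 change of 0.02 ± 0.20 (95% confidence interval -0.40 to 0.43, adjusted p = 0.964). Herpud1 had levels of 3.58, 3.59, 3.74 and 3.56 against 3.59, 3.51, 3.19 and 3.66 in its water (0.13 ± 0.12), and Xbp1 changed by -0.09 ± 0.12. Of the 16 ER genes, 2 lay above every array of their water, Atf6 and the chaperone Hyou1 (0.42 ± 0.21, not called). The other 2 without overlap, the chaperones Calr (-0.34 ± 0.15) and Hsp90b1 (-0.25 ± 0.11), lay below and were not called. Over all gene names, 11.8% lay all above and 15.6% all below. With array weights 1 ER gene rose and 4 fell, with 4694 of 32490 gene names called higher and 5288 lower. Edem1 was not called on its brightest probe and rose on another (0.68 ± 0.12). Within slide 4 (3 exposed arrays and 2 water arrays) 14 genes rose in the ATF4 and amino acid arm and 1 in the ER arm, and within slide 5 (1 and 2 arrays) 9 and 0 rose. Over all gene names, 3013 were called higher and 2986 lower within slide 4, and 1560 and 1657 within slide 5.

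The change with Min-U-Sil 5 was then tested against the change with NM-203 at 5 µg/cm², each against its own water. In this test 0 of 26 and 0 of 16 members differed in either direction, while 0.108% of all gene names had a higher change with Min-U-Sil 5 and 0.0923% a lower one; 2477 gene names had an unadjusted p under 0.05. The difference was 0.04 for Slc7a11 (95% confidence interval -0.92 to 0.99), -0.20 for Fgf21 (-1.36 to 0.96), -0.33 for Atf4 (-0.78 to 0.12), -0.35 for Ddit3 (-0.73 to 0.04) and -0.58 for Hspa5 (-1.17 to 0.00). The doses by mass differed, 20 µg/cm² of Min-U-Sil 5 and 5 µg/cm² of NM-203, and these intervals do not show that the 2 materials act alike.

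TPA was set against its solvent DMSO. In the ATF4 and amino acid arm 5 of 26 genes rose and 1 fell, with a median log2 change of -0.02, and in the ER arm 0 of 16 were called, while 4.89% of all gene names were called higher and 6.78% lower. Slc7a11 had levels of -2.72, -3.58, -2.82 and -2.65 with TPA and of -4.92, -4.81, -3.92 and -4.20 with DMSO, without overlap, as for 7.99% of all gene names above and 11.7% below (2.87-fold, log2 change 1.52 ± 0.33, adjusted p = 0.00178). Fgf21 had levels of -3.70, -4.86, -4.17 and -4.35 against -5.54, -6.04, -5.38 and -5.44 with DMSO, where 1 of 4 arrays was well above background (1.33 ± 0.40, adjusted p = 0.0266, and 0.47 with normexp and quantile normalization, which gave 0.76 for Slc7a11). Cth had levels of 0.26, -0.13, 0.14 and 0.24 against -0.42, -0.35, -0.71 and -0.61 with DMSO (0.65 ± 0.16, adjusted p = 0.00496). The other 2 that rose were Nupr1 (0.55 ± 0.09) and Slc6a9 (0.48 ± 0.11), and the glutamine carrier Slc1a5 fell by 0.44 (SE 0.12).

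Of the 7 regulators, Nupr1 alone was called with TPA. Atf4 had levels of 5.78, 5.60, 5.85 and 6.00 with TPA and of 5.53, 5.77, 5.88 and 6.47 with DMSO (-0.11 ± 0.16). Trib3 changed by 0.06 ± 0.16, Ddit3 by -0.28 ± 0.13, Chac1 by 0.08 ± 0.18 and Asns by 0.24 ± 0.11 (adjusted p = 0.163), while another Asns probe rose by 0.56 ± 0.13. DMSO replicate 4 was the highest array of its group for Atf4, Trib3, Ddit3 and Chac1, with 3.97 for Chac1 against 3.03, 3.01 and 3.02 on the others, and without it 6 genes of the arm were called higher and 1 lower. Hspa5 (-0.24 ± 0.20), Herpud1 (-0.04 ± 0.12) and Xbp1 (-0.24 ± 0.12) were not called. With scaling on the median of the genes tested, 1 member was called with TPA, Slc7a11, and with array weights 11 were.

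Tested against the change with NM-203 at 5 µg/cm², the change with TPA was lower for 16 of 26 ATF4 and amino acid genes and for 3 of 16 ER genes and higher for 0, while 7.05% of all gene names had a higher change with TPA and 7.74% a lower one. Fgf21 (-1.97 ± 0.57), Trib3 (-1.76 ± 0.23), Ppp1r15a (-1.52 ± 0.22) and Slc7a1 (-1.32 ± 0.23) differed most among those called, and in the ER arm Hspa5 (-0.84 ± 0.29), Manf (-0.68 ± 0.21) and Creld2 (-0.60 ± 0.15) did. For Fgf21 only 1 of 4 DMSO arrays and 2 of 4 water arrays were well above background. Its difference ranged from -2.25 to -0.77 under the alternatives. The Hspa5 call was lost under 15 of 22 alternatives, and its other probes were not called (-0.45 ± 0.21 and -0.52 ± 0.21). For Slc7a11 the difference was -1.27 ± 0.47 on the brightest probe, which was not called (adjusted p = 0.0685), and -2.17 ± 0.46 on another, which was; with normexp and quantile normalization the brightest probe was called too (adjusted p = 0.00122). Other probes were also called lower for Herpud1 (-0.54 ± 0.15) and Hyou1 (-0.87 ± 0.23 and -0.91 ± 0.25), and not called for Cebpg (-0.34 ± 0.16) and Slc3a2 (0.08 ± 0.19). With scaling on the median of the genes tested, 13 genes of the first arm and 0 of the ER arm differed.

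Both arms were also described over all 9 groups by the median of their members on each array, taken after subtracting the mean of the array's own vehicle group. In the ATF4 and amino acid arm this median was -0.03 to 0.03 on the 4 water arrays, -0.06 to 0.20 with NM-203 at 1 µg/cm², 0.24 to 0.35 at 2 µg/cm² and 0.85 to 1.10 at 5 µg/cm². It was 0.08 to 0.17 with DE. It was 0.51 to 0.71 with Min-U-Sil 5, against -0.11 to 0.08 in its water, and -0.04 to 0.08 with TPA, against -0.11 to 0.14 in DMSO. The arrays at 2 and 5 µg/cm², of DE and of Min-U-Sil 5 thus lay above all arrays of their controls, and those at 1 µg/cm² and of TPA overlapped them. At 2 µg/cm² the treated arrays and their water were scanned on different days. In the ER arm it was -0.05 to 0.05 in water, -0.25 to -0.08 with NM-203 at 1 µg/cm², -0.18 to 0.15 at 2 µg/cm² and -0.04 to 0.20 at 5 µg/cm². It was -0.27 to -0.02 with DE. It was -0.05 to 0.10 with Min-U-Sil 5, against -0.12 to 0.09 in its water, and -0.18 to 0.03 with TPA, against -0.13 to 0.13 in DMSO. All these ranges except those of 1 µg/cm² overlapped the range of their control. The difference between the arms on the same array (first arm minus ER arm) was 0.85 to 0.99 for NM-203 at 5 µg/cm² and 0.42 to 0.72 for Min-U-Sil 5, and it was above 0 on every array of the 6 treated groups. In the controls this difference was -0.07 to 0.08 (water), -0.04 to 0.05 (Min-U-Sil 5 water) and -0.09 to 0.09 (DMSO). The range with TPA, 0.04 to 0.14, overlapped that of DMSO. Medians over chosen members are given as a description, with no test.

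**Figure D4:**
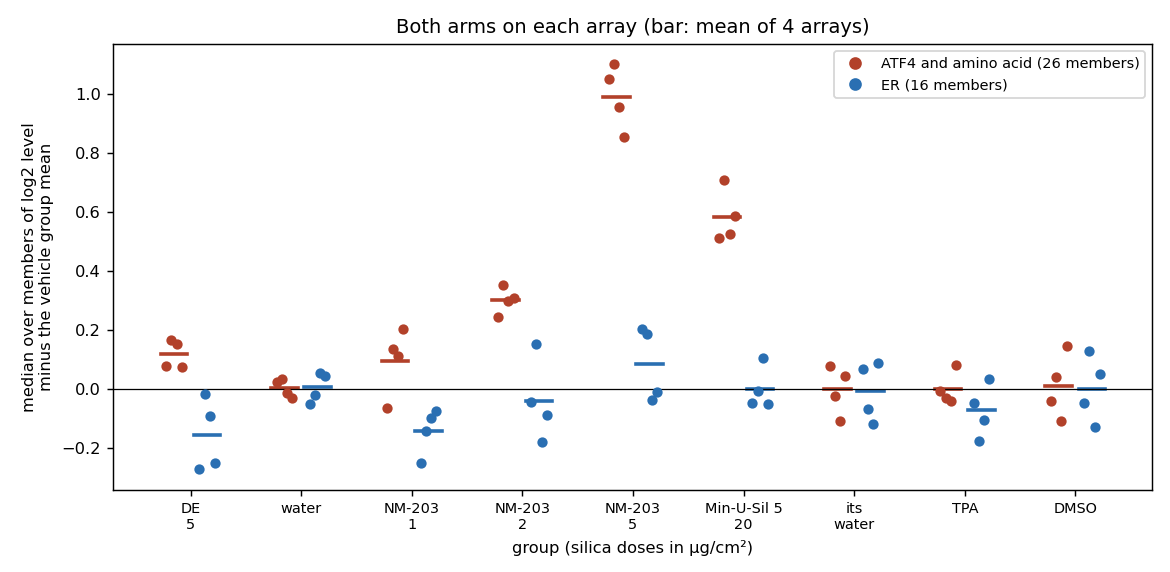
Median over the 26 ATF4 and amino acid members and over the 16 ER members of the log2 level minus the mean of the own vehicle group (vertical axis), on each of the 4 arrays of the 9 groups; bars are the means of 4 arrays. NM-203 at 5 µg/cm² (0.85 to 1.10) and Min-U-Sil 5 (0.51 to 0.71) lie above all other arrays in the first arm, and all ER medians lie between -0.27 and 0.20.

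Across the 9 group means, 17 of 26 ATF4 and amino acid genes were highest with NM-203 at 5 µg/cm² and 4 with Min-U-Sil 5 (Atf4, Sesn2, Vldlr and Slc7a1). The highest means of the 16 ER genes were spread over 6 groups, 5 of them at 2 µg/cm² and 5 at 5 µg/cm² of NM-203. Fgf21 was not above background in its lowest group, the Min-U-Sil 5 water, so no exact span is given for it. Among the others, the span from the lowest to the highest group mean was widest for Slc7a11 (log2 3.31), Cth (2.19), Chac1 (2.09) and Slc7a3 (2.08), and narrowest for Dnajb9 (0.28), Canx (0.30), Edem1 (0.32), Slc38a2 (0.34) and Xbp1 (0.36). These ranks and spans cross the 2 scan days. In Slc7a3 the highest group was the Min-U-Sil 5 water, whose level exceeded that of the other water by 1.45 ± 0.31.

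Other genes of the same pathways were taken from lists chosen for their known roles. Cytosolic aminoacyl-tRNA synthetases, which charge transfer RNAs, rose in 13 of 18 cases with NM-203 at 2 µg/cm² (median log2 change 0.49), in 17 at 5 µg/cm² (0.97), in 16 with Min-U-Sil 5 (0.78) and in 2 with TPA (0.15), and 0 fell in these comparisons. Of all gene names, 16.2%, 14%, 11.6% and 4.89% were called higher in the same order, and 8.86%, 19.1%, 13.9% and 6.78% lower. The comparison at 2 µg/cm² crosses the 2 scan days. Wars, the tryptophan enzyme, and Mars1, the methionine enzyme, rose by 1.52 ± 0.12 and 1.45 ± 0.11 with NM-203 at 5 µg/cm² and by 1.20 ± 0.12 and 1.23 ± 0.11 with Min-U-Sil 5. All 7 serine and one-carbon enzymes rose with NM-203 at 2 and at 5 µg/cm² and with Min-U-Sil 5, and 3 did with TPA. Psat1, which makes a precursor of serine, rose by 0.99 ± 0.13, 1.99 ± 0.13, 1.79 ± 0.13 and 0.93 ± 0.13 in the same order. Shmt2, which moves a carbon unit from serine in mitochondria, rose by 2.00 ± 0.12 with NM-203 at 5 µg/cm².

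Upstream of ATF4, 3 of 6 genes of the eIF2 kinases and phosphatase rose and 1 fell with NM-203 at 5 µg/cm², while 14% of all gene names were called higher and 19.1% lower. Eif2s1, the eIF2 subunit that is phosphorylated, rose by 1.39 ± 0.15, and by 1.08 ± 0.15 with Min-U-Sil 5. Eif2ak3, which encodes PERK, fell by 0.93 (SE 0.11) with NM-203 at 5 µg/cm², by 0.66 (SE 0.11) with Min-U-Sil 5 and by 0.37 (SE 0.11) with TPA. The ER stress sensors and proteases gave 1 gene higher and 2 lower of 7 with NM-203 at 5 µg/cm², and 0 higher and 4 lower with Min-U-Sil 5. With Min-U-Sil 5, 11.6% of all gene names were called higher and 13.9% lower. Creb3l1 and Creb3l2, ER-anchored transcription factors of secretory cells, fell by 0.91 (SE 0.15) and 0.89 (SE 0.14) with NM-203 at 5 µg/cm² and by 0.86 (SE 0.15) and 0.83 (SE 0.14) with Min-U-Sil 5. Of 20 further genes of ER translocation, oxidation and degradation, 5 rose and 4 fell with NM-203 at 5 µg/cm², and 1 rose and 4 fell with Min-U-Sil 5. The share that fell at 5 µg/cm² (20%) lay near that of all gene names (19.1%). The oxidase Ero1a rose by 1.09 ± 0.14 and 0.98 ± 0.14, and the lectin Os9 fell by 0.87 (SE 0.10) and 0.69 (SE 0.10) in these comparisons.

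Slc7a11 is also a target of the oxidant-sensing factor NRF2, and of 8 other NRF2 targets 5 rose and 0 fell with NM-203 at 5 µg/cm² and likewise 5 and 0 with Min-U-Sil 5. Of all gene names, 14% and 11.6% were called higher and 19.1% and 13.9% lower in these comparisons. Gclc, a subunit of the enzyme that starts glutathione synthesis, rose by 1.47 ± 0.10 and 1.67 ± 0.10. With TPA 1 rose, the partner subunit Gclm (0.42 ± 0.07), and 1 fell, Hmox1 (by 0.54, SE 0.16). At 2 µg/cm² of NM-203, against water scanned on the other day, Gclc rose by 0.39 ± 0.10, a call lost under 4 of 22 alternatives. The thioredoxin reductase Txnrd1 fell there by 1.00 (SE 0.13), a call kept under 21 of 22 alternatives. Against the Min-U-Sil 5 water of the same day, the log2 change of Txnrd1 was 0.026. With Min-U-Sil 5, Txnrd1 rose under all 23 alternatives, by 0.84 to 1.36. With NM-203 at 1 µg/cm² and with DE, 0 genes of these 6 lists were called.

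**Figure D5:**
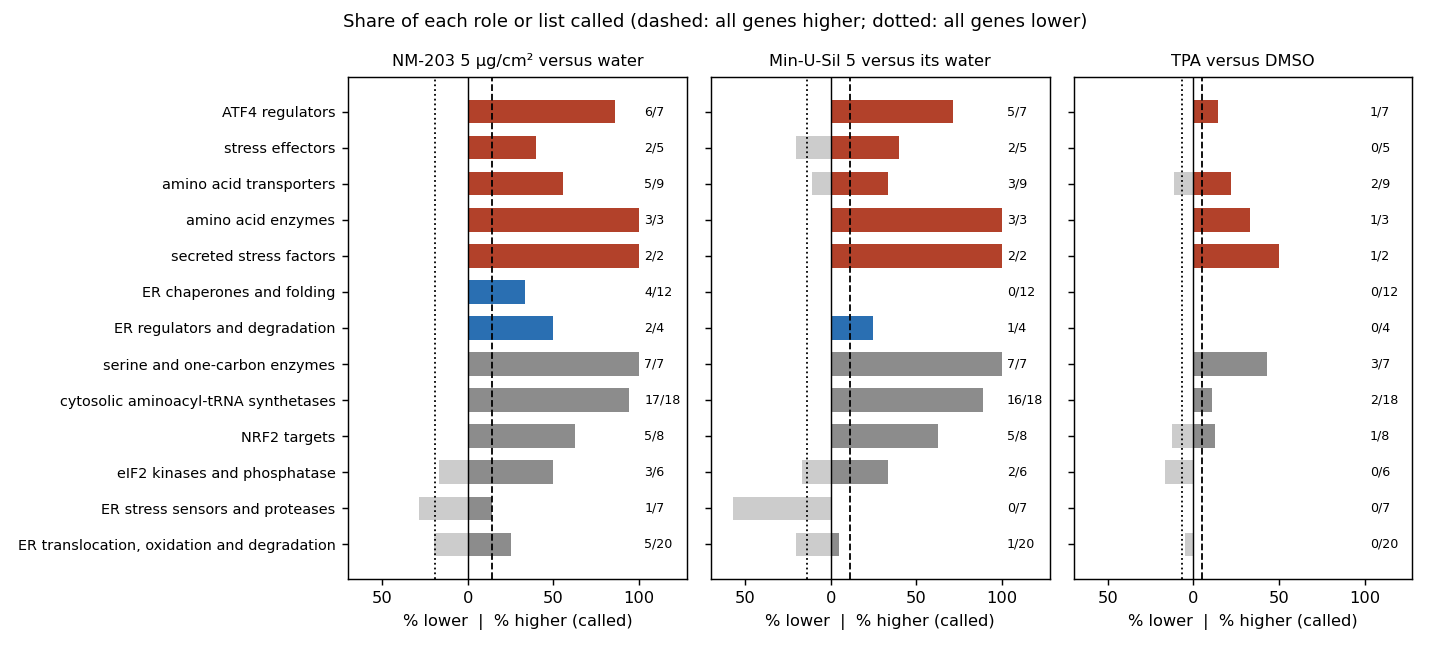
Share of each role of the members (7 upper lists; red ATF4 and amino acid arm, blue ER arm) and of 6 further lists (grey) called higher (bars to the right) or lower (light bars to the left) for NM-203 at 5 µg/cm² versus water, Min-U-Sil 5 versus its water and TPA versus DMSO, in percent of the tested genes; figures at the right give genes higher over genes tested. Dashed and dotted lines mark the shares of all gene names called higher (14%, 11.6% and 4.89%) and lower (19.1%, 13.9% and 6.78%).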

How the data were processed

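RNA of 36 samples was measured on 1-colour Agilent mouse arrays. Intensities were background-subtracted and detrended within each array by the authors with Agilent Feature Extraction 11.0.1.1, per the file headers, with no scaling between arrays. The deposited value table holds log2 values centred on each probe, and the scaling before that is not given in the sources used here; its column medians lie between -0.25 and 0.27. Set against the scanner values, 33 of its 36 columns matched their own array best; those of Min-U-Sil 5 replicates 1 to 3 matched each other's, which leaves the group as it is.

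Processed intensities were taken to log2 and scaled by subtracting each array's 75th percentile. Outlier spots and control spots were left out, and no spot was saturated. Of 56605 probes, 40677 were well above background on 3 of 4 arrays of a group and were tested. Accessions gave 32994 probes a symbol; other probes kept the name in the file. A gene is represented by its brightest tested probe, and other probes are given where their call differs from it. limma 3.58.1 in R 4.3.3 (lmFit and eBayes) was fitted to all 36 arrays with 9 group means, which leaves 27 residual degrees of freedom, and p-values were adjusted by Benjamini-Hochberg over all 32490 gene names. The code was tested on simulated data. The members and the other gene lists were chosen with earlier results of these data known.

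Named are, per comparison with a vehicle, up to 8 called genes of the ATF4 and amino acid arm and up to 6 of the ER arm with the widest changes, and always Atf4, Ddit3, Asns, Hspa5, Herpud1 and Xbp1; per other comparison up to 4 of each arm; and per other list up to 2. Further members are named to account for all of them, and the member levels of Pdia6 with DE were added after its values were seen. Replicate numbers did not pair the arrays (correlations of deviations between -0.60 and 0.38). Alternatives covered background correction, scaling, the deposited values, filters, probe choice, slide, scan day and replicate blocks, weights and left-out replicates. Figures were drawn with matplotlib 3.10.9.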

Additional observations from a re-analysis of the deposited data

Results flagged for a closer look

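In 10 of the 153 groups of 4 arrays examined for 17 members, 1 array stood apart, with a gap to its neighbour that made up more of the group's range than Dixon's 95% critical value; chance gives this in about 1 in 20 groups. The gap was 0.956 of the range for Pdia6 with DE, where replicate 3 was low, and 0.954 for Fgf21 with DE, where the same array was low. For Atf5 it was 0.933 with NM-203 at 2 µg/cm², where replicate 2 had a level of 3.31 against 6.59 to 6.82 on the others, 0.914 with Min-U-Sil 5 and 0.832 with DE. For Chac1 it was 0.978 in DMSO, where replicate 4 was high. For Manf it was 0.950 with Min-U-Sil 5 and 0.898 with NM-203 at 1 µg/cm². It was 0.843 for Herpud1 and 0.856 for Ddit4 with Min-U-Sil 5. The 18 groups of arm medians held none.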

How the results depend on the processing

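The number of members called, both arms together, stayed within 1.5 times under most alternatives. With scaling on the median of the genes tested it was 0 for DE (1 as reported) and 1 for TPA (6 as reported), and with array weights it was 11 for TPA. For NM-203 at 2 µg/cm² (10 as reported) it was 4 with slide as a block, 2 with scan day as a block and 5 with the compared groups alone, where DE gave 0. Within single slides it was 13 for NM-203 at 5 µg/cm² on slide 1 (24 as reported), 9 for Min-U-Sil 5 on slide 5 (18 as reported), 1 for TPA on slide 1, and 0 for DE on slides 1 and 3; these fits have fewer arrays. Leaving out 1 replicate at a time gave 0 to 1 for DE, 21 to 24 for NM-203 at 5 µg/cm², 9 to 13 at 2 µg/cm², 15 to 18 for Min-U-Sil 5 and 5 to 7 for TPA. Since the replicate numbers do not pair the arrays, the replicate block is no paired test; with it the counts were 23 for NM-203 at 5 µg/cm², 10 at 2 µg/cm², 0 at 1 µg/cm², 1 for DE, 17 for Min-U-Sil 5 and 6 for TPA. At 2 µg/cm², the control on the same scan day turned the sign of Creb3l2 (0.19), Eif2ak3 (-0.061) and Txnrd1 (0.026), and the cause was not tested. Among the genes named, Canx at 2 µg/cm² lost its call under 14 of 22 alternatives, and Hspa5 and Hyou1 at 5 µg/cm² under 6 and 5 of 23. Atf6 with Min-U-Sil 5 lost it under 8 of 23. With TPA, Hmox1 lost its call under 9 of 22, and Fgf21 and Eif2ak3 each under 8 of 22. Hspa5 lost it under 15 of 22 in the change with TPA against that with NM-203. Fgf21 lay near or under background in the control arrays, which limits the size of its changes. Slc7a11 had low levels there but was well above background on 4 of 4 water arrays. In the Min-U-Sil 5 water and in DMSO it was so on 3 of 4 each. The size of its changes also depended on the background correction and normalization. Fgf21 was tested only because exposed groups with a high level of it passed the background limit. With normexp and quantile normalization, the log2 change of Fgf21 with NM-203 at 5 µg/cm² was 1.19 against DE and 1.16 against 1 µg/cm², and that of Slc7a11 was 1.45 and 1.46.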
